A study of Mus musculus with 20 samples.

Results

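The genes described here are 42 antioxidant and NRF2 target genes, listed by name for their function with earlier results of these data known, and they matched 44 of the 25308 entries of the gene table. Txnrd2 and Gstp1 each had 2 gene identifiers, between which the reads were split, so each of these entries is uncertain by itself. RNA was sequenced from the heart apex of 20 mice in 3 groups. The 9 AL mice were λS-DH mice (genotype DH-lambdaS) with cardiac amyloid deposits, the 4 LS mice were λS-DH mice without deposits that had not been induced, and the 7 Ctrl mice were DH mice of the DH-LMP2A strain. λS-DH mice carry the cDNA of a human monoclonal λ light chain (λS-LC) inserted into the Ig kappa locus in place of the Jκ segments, under the mouse pVH promoter, on the DH-LMP2A background. All 3 groups therefore lack immunoglobulin heavy chains, since DH-LMP2A mice make plasma cells without them, and λS-DH and Ctrl mice differ in the light chain they secrete. Deposits were induced by intravenous injection of the variable domain of the λS light chain, as fibrils or in soluble form, in male and female mice over 3 months old, with age-matched controls; the labels do not give the induction, age or sex of a single mouse. LS mice were in the first of 2 sequencing runs only (run 1 with 7 AL, 4 LS and 4 Ctrl mice, run 2 with 2 AL and 3 Ctrl mice). Each library was labelled as 1 mouse, so the p-values below measure the spread between mice.

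NRF2, encoded by Nfe2l2, is a transcription factor held at a low level by KEAP1, which presents it for degradation until oxidants or electrophiles modify KEAP1. It then pairs with small MAF proteins on antioxidant response elements (AREs) near genes for glutathione synthesis, thioredoxin reduction, quinone reduction and haem breakdown. The heart respires at a high rate, and superoxide leaving its mitochondria is turned into hydrogen peroxide by superoxide dismutases. The peroxide is then removed by catalase, glutathione peroxidases and peroxiredoxins. The phagocyte NADPH oxidase, of which Cybb encodes a subunit, makes superoxide. Metallothioneins are small cysteine-rich proteins that bind zinc and copper, and their genes are driven by metals through metal response elements (MREs), by glucocorticoids and by oxidants.

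RefSeq promoter windows of GRCm38.p6, from 250 bases before to 50 bases after a start, were found for 35 of the 42 genes. The ARE core TGACNNNGC, searched on both strands, was in a window of 9 of these 35 genes (25.7%), against 14% of all 27025 genes with a window. The MRE core (TGCGCNC or TGCACNC) was in 9 of the 35 (25.7%), against 28.2% of all genes. The 9 ARE matches are shown to set members that rose beside members that did not pass with the same core, each with 5 bases on both sides, on the strand of the match, which is named, with the core in capitals. Those of the 3 genes that rose in AL hearts in at least one comparison were:
Mgst1 (chr6:138140466-138140484, minus strand): cctccTGACCGTGCcaagc
Srxn1 (chr2:152105547-152105565, minus strand): cactcTGACCTAGCtgccc
Mt2 (chr8:94172534-94172552, plus strand): gggtgTGACTCAGCgcggg
Those of the 6 genes that passed in neither AL against Ctrl nor AL against LS were:
Gclm (chr3:122245418-122245436, minus strand): agagtTGACGGTGCgcccg
Nfe2l2 (chr2:75704890-75704908, minus strand): ccaccTGACTCCGCcatgc
Prdx1 (chr4:116685461-116685479, minus strand): ggggaTGACTCAGCgcttt
Sod1 (chr16:90220701-90220719, minus strand): gagtcTGACCACGCccacc
Txnrd1 (chr10:82859109-82859127, minus strand): cagaaTGACAAAGCaaaaa
Ucp2 (chr7:100493287-100493305, minus strand): tggcgTGACGAGGCggagc
The matches began 56 bases before the start of Mgst1, 79 before that of Mt2 and 28 after that of Srxn1. Gpx3, the member called against Ctrl, held no match to either core in its window, which says nothing of other positions.

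The promoters of the metallothionein genes are shown because Mt1 and Mt2 were the members with the largest differences between AL and LS mice. These are the 250 bases before each RefSeq start, on the plus strand that carries both genes, with ARE and MRE cores in capitals (GRCm38.p6).
Mt1 (chr8:94178839-94179088): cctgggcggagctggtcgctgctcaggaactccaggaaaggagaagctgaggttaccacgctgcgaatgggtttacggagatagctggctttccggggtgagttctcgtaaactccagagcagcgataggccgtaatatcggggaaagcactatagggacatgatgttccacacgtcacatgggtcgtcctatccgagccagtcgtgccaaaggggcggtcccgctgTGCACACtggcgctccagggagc
Mt2 (chr8:94172368-94172617): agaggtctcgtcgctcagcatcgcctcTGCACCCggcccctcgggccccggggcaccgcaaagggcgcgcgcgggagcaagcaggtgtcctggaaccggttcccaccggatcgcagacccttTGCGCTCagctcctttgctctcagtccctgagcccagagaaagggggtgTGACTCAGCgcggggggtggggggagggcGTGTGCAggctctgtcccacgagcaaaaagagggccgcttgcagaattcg
In its whole window Mt2 held 4 MRE matches and 1 ARE match, and Mt1 held 3 MRE matches and no ARE match. One MRE match of Mt2 and 2 of Mt1 lay after the start and are not printed.

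Library totals were 43993277 to 62668146 estimated counts in run 1 and 7867642 to 11794615 in run 2. Each member had at least 2 counts in every mouse, and each symbol at least 6 once the split entries of Txnrd2 and Gstp1 were summed. Values below are counts per 1000000 counts (CPM) after TMM scaling of the library totals, given for each mouse or as the lowest, median and highest mouse of a group. Where groups are said not to overlap, the share of all genes that did so was not computed. Fold changes are log2 values with their standard error from the edgeR quasi-likelihood test, with the run as a term and the Benjamini-Hochberg false discovery rate (FDR) over 14477 genes; a gene was called when its FDR was under 0.05 and its absolute log2 fold change at least 0.58. The 10 cardiomyocyte markers summed to 52820 to 86102 CPM over the 20 mice. Markers of liver cells differed between groups: 18 of 18 hepatocyte markers were lower in AL than in Ctrl mice and 14 of 18 than in LS mice, with sums of 12.1 to 69.8 CPM in AL, 26.8 to 268 CPM in LS and 14.8 to 398 CPM in Ctrl mice, and 5 run 1 mice (LS1, LS3, Ctrl1, Ctrl3 and Ctrl4) held the sums of 209 CPM or more. Of 13 macrophage and monocyte markers, 4 were higher in AL than in Ctrl mice (30.8%, where 26.2% of all genes passed in either direction). Against LS mice 1 was higher (7.69%, where 23.4% of all genes passed). Their sums were 207 to 819 CPM in AL, 364 to 424 CPM in LS and 246 to 496 CPM in Ctrl mice. In bulk tissue, fewer cells of a type and less RNA per cell cannot be told apart.

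Per kilobase of exon, the most abundant members in Ctrl hearts were Gpx4, the glutathione peroxidase that reduces lipid peroxides, at 178 ± 28.8 CPM per kb (SD, n = 7), and Prdx3, the mitochondrial peroxiredoxin, at 161 ± 32.6. Mgst3 (149 ± 56.1), Gstm1 (104 ± 11.2) and Cat (96.9 ± 12.2) followed, and neighbours in this order lay within the larger of their SDs of each other. The length was that of all annotated exons of a gene joined, expressed or not, and the order depends on it. Sod2, with 10008 such bases, stood at 47.1 ± 5.96 CPM per kb. Its CPM was above that of Gpx4 (medians of 515 and 343 CPM in Ctrl mice of run 1). Nfe2l2 stood at 21 ± 3.11 and Keap1 at 9.63 ± 0.482 CPM per kb. The scarcest were the NADPH oxidase genes Cybb (1.92 ± 0.645), Ncf1 (1.7 ± 0.742), Ncf4 (0.773 ± 0.284) and Nox4 (0.176 ± 0.0649).

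The comparison of AL with Ctrl mice asks how hearts with amyloid deposits differed from hearts of mice that lack the human light chain. Of the 44 entries, 9 passed an FDR of 0.05, 6 of them higher and 3 lower in AL hearts, and 1 was called (Gpx3). Among all genes tested, 26.2% passed the FDR (10.7% higher and 15.4% lower) and 7.81% were called, so that the members' shares of 20.5% and 2.27% were below these backgrounds. At an unadjusted p under 0.05 there were 14 members, against 38.8% of all genes. The median log2 fold change was 0.09 over the members and 0.01 over all genes. The plot of fold changes by role shows that the members that passed were spread over the peroxidases, the thioredoxin system, the dismutases and catalase, the peroxiredoxins and the transferases.

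**Figure D1:**
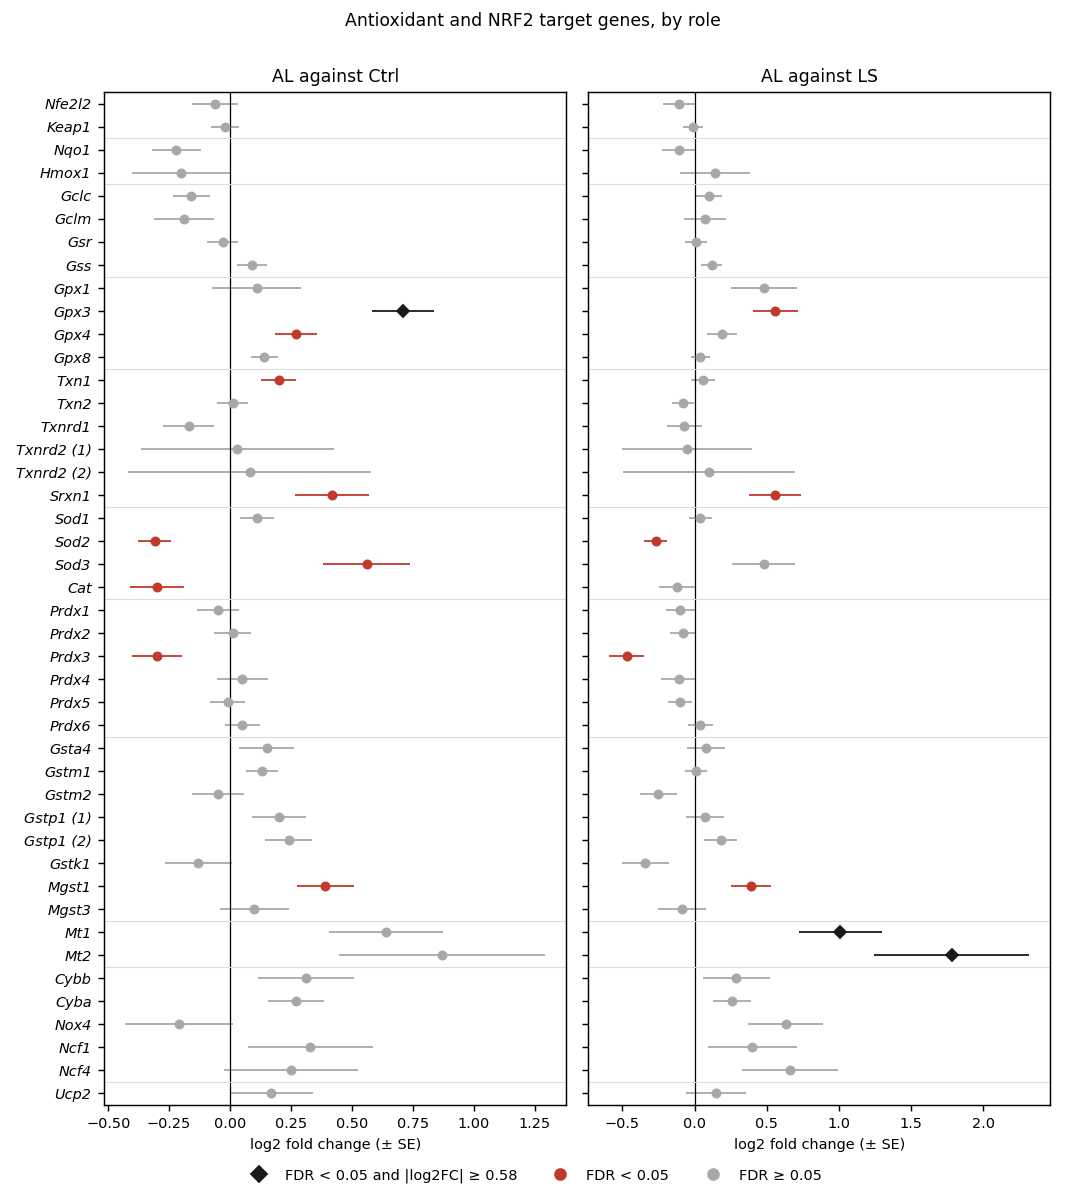
Log2 fold change with its standard error for the 44 entries of the 42 genes, in order of role, for AL against Ctrl (left) and AL against LS (right). Black diamonds passed the FDR and the fold threshold, red points passed the FDR only, grey points passed neither; (1) and (2) are the 2 identifiers of one symbol. Gpx3 is the only diamond on the left, and Mt1 and Mt2 are those on the right.

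The regulators did not pass. Nfe2l2 was at 62.5, 78.5 and 104 CPM (lowest, median, highest) in AL mice, at 110, 97.3, 75.9 and 83.9 CPM in LS1 to LS4, and at 65.3, 83 and 93.4 CPM in Ctrl mice. The log2 fold change was -0.06 ± 0.0944 against Ctrl (FDR = 0.682) and -0.11 ± 0.111 against LS (FDR = 0.517), and the groups overlapped throughout. Keap1 was at 38.4, 42.6 and 56.3 CPM in AL mice, at 45, 41.6, 43.1 and 41.1 CPM in LS mice, and at 42.1, 45.2 and 48.8 CPM in Ctrl mice. Its difference was -0.02 ± 0.057 from Ctrl (FDR = 0.836) and -0.01 ± 0.0676 from LS (FDR = 0.918), with signs that 4 other settings turned for the first and 8 for the second, so that no direction can be given.

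The targets of quinone and haem handling did not pass either. Nqo1, a quinone reductase, was at 41.1, 65.9 and 77.9 CPM in AL mice, at 73, 68.3, 61.3 and 81.5 CPM in LS mice, and at 52.4, 67.7 and 83.8 CPM in Ctrl mice. AL differed from Ctrl by -0.22 ± 0.102 on the log2 scale (FDR = 0.123) and from LS by -0.11 ± 0.117 (FDR = 0.54); without Ctrl2 the first passed, at an FDR of 0.0386. Hmox1, which breaks down haem, was at 5.22, 10.2 and 16.8 CPM in AL mice, at 10.6, 8.39, 8.64 and 12.4 CPM in LS mice, and at 6.3, 11.6 and 19.3 CPM in Ctrl mice. Against Ctrl the log2 fold change was -0.20 ± 0.203 (FDR = 0.488), which became -0.46 without AL9 (FDR = 0.0486), and against LS it was 0.14 ± 0.244 (FDR = 0.727). For both genes the lowest and the highest mouse of the 3 groups were in AL or Ctrl, and LS lay between them. Gclc and Gclm, the subunits of the rate-limiting enzyme of glutathione synthesis, Gss, which adds the last residue, and Gsr, which reduces oxidised glutathione, gave log2 fold changes of -0.19 to 0.09 against Ctrl, 0 of 4 passing (lowest FDR 0.134). Txnrd1, the cytosolic thioredoxin reductase, differed by -0.17 ± 0.105 (FDR = 0.237).

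**Figure D2:**
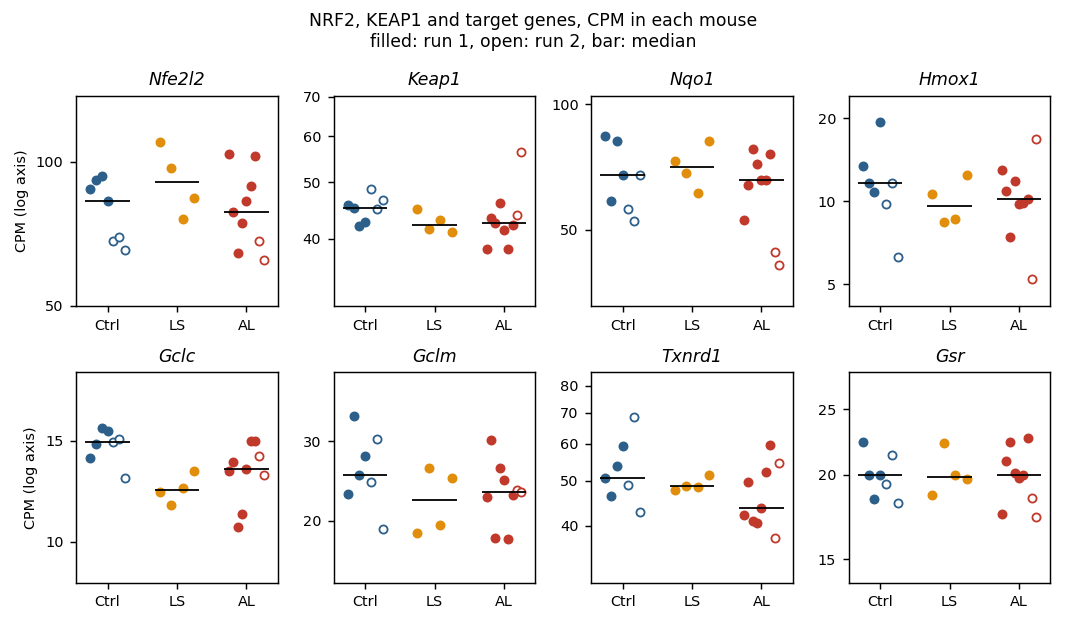
CPM on a log axis in each of the 20 mice for NRF2 (Nfe2l2), Keap1 and 6 genes of glutathione, quinone, haem and thioredoxin metabolism. Filled points are run 1, open points run 2, and bars are group medians; AL overlaps LS and Ctrl in all 8 genes.

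Glutathione peroxidases held the called member, and 2 of 4 passed (50%, against 26.2% of all genes). Each role held few entries, so its share is given as a count and not as a result about the role. Gpx3 (chromosome 11, 54902453 to 54910377, GRCm38), the secreted plasma form, was at 156, 289 and 358 CPM in AL mice, at 171, 244, 220 and 160 CPM in LS mice, and at 116, 154 and 207 CPM in Ctrl mice. In run 1 the 7 AL mice (236 to 358 CPM) all lay above the 4 Ctrl mice (154 to 207 CPM), and in run 2 the AL mice (156 and 300 CPM) lay above the 3 Ctrl mice (116 to 147 CPM). Gpx3 RNA was higher by 0.71 ± 0.128 on the log2 scale against Ctrl (FDR = 0.000799), it passed the FDR in all 30 other settings, and without any one mouse it stayed between 0.60 and 0.80. Gpx4 (chromosome 10, 80047166 to 80056439) was at 257, 391 and 473 CPM in AL mice, at 357, 377, 332 and 363 CPM in LS mice, and at 225, 323 and 361 CPM in Ctrl mice. The 7 AL mice of run 1 lay above the 4 Ctrl mice of that run, while in run 2 the groups overlapped, and the log2 fold change was 0.27 ± 0.0876 (FDR = 0.0315). It no longer passed without AL1, AL7, AL8, Ctrl2, Ctrl4 or Ctrl6 (FDR 0.0507, 0.0559, 0.0846, 0.0805, 0.0621 and 0.0524). Gpx1, a cytosolic form, and Gpx8, of the endoplasmic reticulum, gave 0.11 ± 0.183 (FDR = 0.692) and 0.14 ± 0.0561 (FDR = 0.0745).

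In the thioredoxin system 2 of 6 entries passed (33.3%, against 26.2% of all genes). Srxn1 (chromosome 2, 152105516 to 152111376), sulfiredoxin, which repairs over-oxidised peroxiredoxins, was at 20.7, 27.7 and 46.3 CPM in AL mice, at 20.9, 20.8, 18.8 and 23.3 CPM in LS mice, and at 20, 21.7 and 25.3 CPM in Ctrl mice. AL7, AL1 and AL6 stood apart at 46.3, 39.8 and 37.5 CPM, and the lowest AL mice lay within the other groups. The fitted difference was 0.42 ± 0.152 on the log2 scale (FDR = 0.0477), which passed without AL2, AL3, AL4 or AL5 but not without any other mouse (FDR 0.0564 to 0.101). AL1, AL6 and AL7 were among the 6 AL mice with at most 1.32 CPM of Xist, the RNA of the inactive X chromosome, the other 3 having 269 CPM or more. Xist was over 100 CPM in 3 AL, 2 LS and 3 Ctrl mice, all of run 1 (7 AL, 4 LS and 4 Ctrl mice), and in 0 mice of run 2. Xist was therefore not even over the groups or the runs. With Xist as a covariate the log2 fold change of Srxn1 was 0.24 (FDR = 0.141). Txn1 (chromosome 4, 57943373 to 57956411), cytosolic thioredoxin, was at 20.7, 38.1 and 49.2 CPM in AL mice, at 36.7, 39.8, 40 and 39.5 CPM in LS mice, and at 16.2, 30.6 and 39.9 CPM in Ctrl mice. The spread was mostly between runs, with 30.6 to 49.2 CPM in AL and Ctrl mice of run 1 and 16.2 to 21 CPM in run 2. Txn1 was higher by 0.20 ± 0.0725 on the log2 scale (FDR = 0.0444), and it passed without AL3, AL5, Ctrl3 or Ctrl7 but not without any other mouse (FDR 0.0504 to 0.117). The summed entries of Txnrd2, the mitochondrial thioredoxin reductase, were at 19.4 to 25.5 CPM in AL and 17.3 to 28.9 CPM in Ctrl mice and differed by 0.02 ± 0.0859 (FDR = 0.894).

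Of the dismutases and catalase, Sod2 and Cat were lower and Sod3 was higher, and of the 6 peroxiredoxins Prdx3 was lower. These were 3 of 4 entries (75%) and 1 of 6 (16.7%), against 26.2% of all genes. Sod2 (chromosome 17, 13006846 to 13040063), the manganese superoxide dismutase of the mitochondrial matrix, was at 255, 420 and 461 CPM in AL mice, at 499, 506, 482 and 559 CPM in LS mice, and at 404, 481 and 552 CPM in Ctrl mice. AL lay below Ctrl without overlap in run 1 (391 to 461 against 481 to 552 CPM) and in run 2 (255 and 369 against 404 to 419 CPM). The difference was -0.31 ± 0.0673 on the log2 scale (FDR = 0.00267), which passed without any one mouse. Prdx3 (chromosome 19, 60864051 to 60874556) was at 102, 222 and 247 CPM in AL mice, at 304, 304, 283 and 340 CPM in LS mice, and at 168, 246 and 291 CPM in Ctrl mice. With the run as a term, the difference was -0.30 ± 0.104 on the log2 scale (FDR = 0.0366), and it no longer passed without AL9, at 102 CPM the lowest mouse (log2 fold change -0.19, FDR = 0.0798), nor without AL1, AL4, Ctrl3, Ctrl4 or Ctrl7 (FDR 0.0537 to 0.0795). The cardiomyocyte markers Myh6 (-0.33 ± 0.102) and Pln (-0.44 ± 0.123), 2 of 10 (20%, against 26.2% of all genes), were also lower than in Ctrl. Their part in these differences was not tested. Cat (chromosome 2, 103453849 to 103485160), peroxisomal catalase, was at 136, 214 and 277 CPM in AL mice, at 224, 238, 234 and 244 CPM in LS mice, and at 212, 265 and 305 CPM in Ctrl mice. Its log2 fold change was -0.30 ± 0.109 (FDR = 0.0477), with overlapping groups, and was -0.20 without AL9 (FDR = 0.138); it passed without AL2, AL7, AL8, Ctrl4 or Ctrl7 but not without any other mouse (FDR 0.055 to 0.138). Liver is rich in catalase. With the hepatocyte markers as a covariate the value was -0.34 (FDR = 0.109). The high hepatocyte sums were all in LS and Ctrl mice, whose lowest sums (26.8 and 14.8 CPM) lay within the AL range. This fit therefore tells the markers apart from group only in part. The part of liver RNA in the Cat difference was not tested.

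Sod3 (chromosome 5, 52363791 to 52371418), the extracellular dismutase, was at 18.2, 22.9 and 48.4 CPM in AL mice, at 14.6, 19, 18.6 and 20.2 CPM in LS mice, and at 13.8, 16.6 and 23.6 CPM in Ctrl mice. AL9 held the highest value, and in run 1 the groups overlapped (18.2 to 29.8 against 15.6 to 23.6 CPM). Over both runs the log2 fold change was 0.56 ± 0.179 (FDR = 0.0283); it was 0.35 without AL9 (FDR = 0.0691) and did not pass without Ctrl3, Ctrl4, Ctrl5 or Ctrl7 (FDR 0.0516 to 0.0585). AL9 also had the highest sum of 10 fibroblast markers, 5178 CPM against 732 to 3277 CPM in the other AL mice; their part in the difference was not tested. Cytosolic Sod1 differed by 0.11 ± 0.0691 (FDR = 0.232), and the other 5 peroxiredoxins by -0.05 to 0.05.

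Of 8 transferase entries 1 passed (12.5%, against 26.2% of all genes). Mgst1 (chromosome 6, 138140316 to 138156755), a glutathione transferase of the endoplasmic reticulum and outer mitochondrial membrane, was at 27.3, 39.9 and 48.7 CPM in AL mice, at 34.4, 29.2, 29.5 and 37.5 CPM in LS mice, and at 19, 32.2 and 36.7 CPM in Ctrl mice. Of the 7 AL mice of run 1, 6 lay above all Ctrl mice of that run and AL3, at 28.6 CPM, below them, and in run 2 both AL mice (27.3 and 39.9 CPM) lay above the 3 Ctrl mice (19 to 25.3 CPM). Its log2 fold change was 0.39 ± 0.117 (FDR = 0.0195), and 0.30 without AL9 (FDR = 0.051). The summed entries of Gstp1 gave 0.22 ± 0.0976 (FDR = 0.0974), and Gsta4, Gstm1, Gstm2, Gstk1 and Mgst3 gave -0.13 to 0.15. Gstm1 and Gstm2 have close paralogs with which they may share reads. Of the NADPH oxidase subunits, Cybb (gp91phox), Cyba (p22phox), Ncf1 (p47phox) and Ncf4 (p40phox) gave 0.25 to 0.33 and the constitutive oxidase Nox4 gave -0.21, and 0 of 5 passed (lowest FDR 0.0838). The uncoupling protein gene Ucp2 gave 0.17 ± 0.169 (FDR = 0.471).

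**Figure D3:**
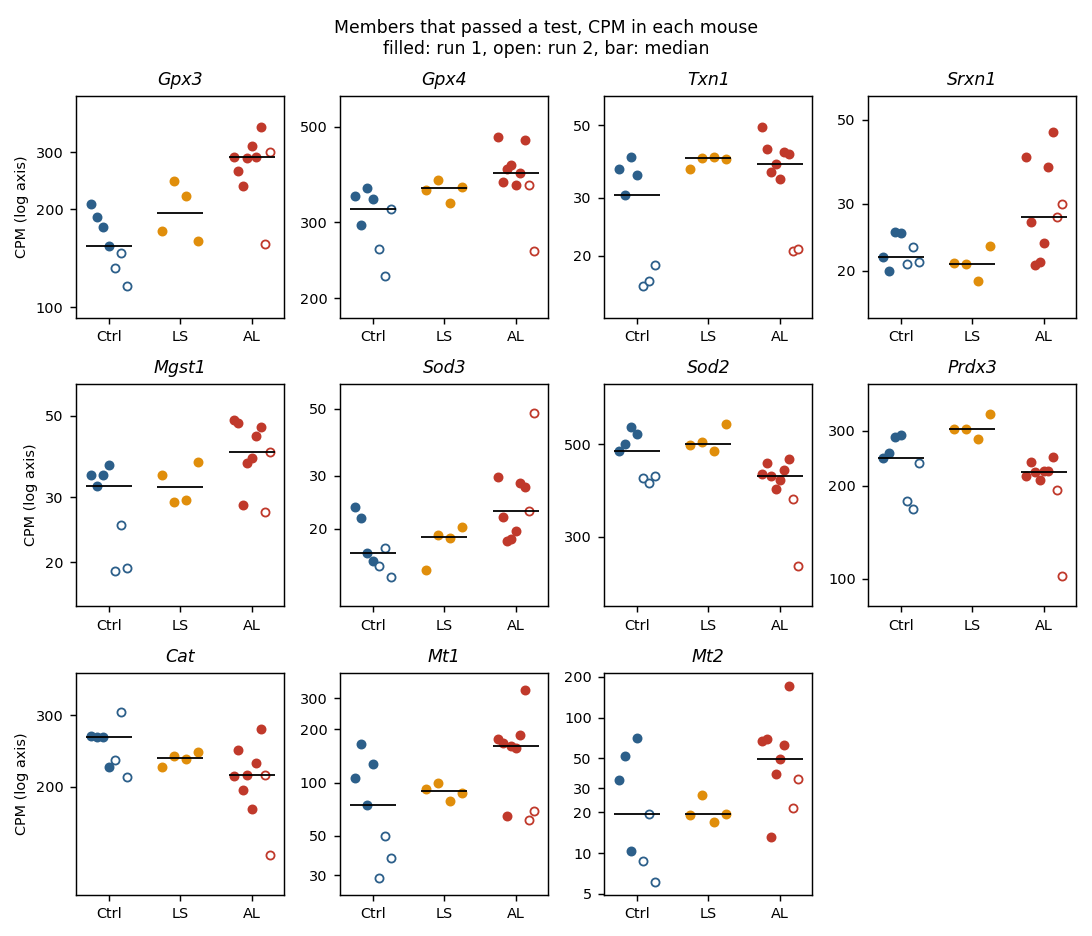
CPM on a log axis in each of the 20 mice for the 11 members that passed an FDR of 0.05 in AL against Ctrl or AL against LS. Filled points are run 1, open points run 2, and bars are group medians; Sod2 and Prdx3 are lower in AL than in all LS mice, and AL7 is the highest mouse for Mt1 and Mt2.

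With ComBat-seq in place of the run term, or without the 5 mice of high hepatocyte markers, 1 of the 9 members (Gpx3) passed the FDR. Without those 5 mice, Ctrl2 is the only Ctrl mouse of run 1. The shares of all genes that passed in these fits are not given, so the fall cannot be read as particular to the members. With the hepatocyte markers as a covariate 4 passed (Gpx3, Mgst1, Sod2 and Sod3), as did 4 with Xist as a covariate (Gpx3, Prdx3, Sod2 and, lower, Gclc).

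The comparison of AL with LS mice sets hearts with deposits against hearts of mice that secrete the same light chain without deposits. AL and LS mice also differ in the injection, so that its effect and that of the deposits cannot be told apart. The comparison shares the 9 AL mice with the comparison above. Of the 44 entries, 7 passed the FDR, 5 higher and 2 lower in AL hearts, and 2 were called (Mt1 and Mt2). Among all genes, 23.4% passed (9.78% higher and 13.6% lower) and 8.9% were called, against 15.9% and 4.55% of the members, and 11 members had an unadjusted p under 0.05, against 36.8% of all genes. The median log2 fold change was 0.06 over the members and 0.01 over all genes.

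Metallothioneins held both called members. Mt1 (chromosome 8, 94179082 to 94180327) was at 61.4, 161 and 335 CPM in AL mice, at 92.1, 100, 78.4 and 87.6 CPM in LS mice, and at 29, 74.8 and 166 CPM in Ctrl mice. Of the 7 AL mice of run 1, AL3 lay at 64.6 CPM and the other 6 at 156 CPM or more, above all 4 LS mice. Its log2 fold change was 1.01 ± 0.286 against LS (FDR = 0.0164) and 0.64 ± 0.234 against Ctrl (FDR = 0.0509), and the first did not pass without LS3 (FDR = 0.0536). Mt2 (chromosome 8, 94172664 to 94173568), its neighbour, was at 13.2, 49.5 and 172 CPM in AL mice, at 19.2, 26.7, 16.9 and 19.5 CPM in LS mice, and at 6.15, 19.3 and 70.6 CPM in Ctrl mice. AL3 was again the lowest AL mouse and AL7 the highest, and the Ctrl mice also spread widely while the LS mice lay close together. Its log2 fold change was 1.78 ± 0.538 against LS (FDR = 0.023) and 0.87 ± 0.424 against Ctrl (FDR = 0.136), and the first did not pass without LS1, LS3 or LS4 (FDR 0.0606, 0.0667 and 0.0619). Liver also makes metallothioneins. With the hepatocyte markers as a covariate the differences from LS were 1.03 for Mt1 (FDR = 0.0406) and 1.84 for Mt2 (FDR = 0.0458). No AL mouse had a high hepatocyte sum, while the LS sums ran from 26.8 to 268 CPM. This fit therefore tells the markers apart from group only in part. The part of liver RNA was not tested. With no run term the differences were 0.77 for Mt1 (FDR = 0.238) and 1.52 for Mt2 (FDR = 0.101). LS against Ctrl gave -0.37 ± 0.3 for Mt1 (FDR = 0.91) and -0.91 ± 0.545 for Mt2 (FDR = 0.867).

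Prdx3 and Sod2 were lower in every AL mouse than in every LS mouse, also when run 1 was taken alone. The share of all genes that separated AL from LS mice in this way was not computed, and 23.4% of all genes passed the FDR in this comparison. The log2 fold change of Prdx3 was -0.47 ± 0.12 (FDR = 0.00956), which passed without any one mouse, and that of Sod2 was -0.27 ± 0.0787 (FDR = 0.018), which did not pass without LS4 (FDR = 0.0783). Of the cardiomyocyte markers, Myh6 and Pln, 2 of 10 (20%, against 23.4% of all genes), were also lower, with -0.46 ± 0.121 and -0.47 ± 0.142, and the 10 summed to 52820 to 84943 CPM in AL and 69041 to 76566 CPM in LS mice. The part of cardiomyocyte RNA in the difference was not tested. Gpx3 was higher by 0.56 ± 0.154 (FDR = 0.0133), which did not pass without LS1 or LS4 (FDR 0.0543 and 0.0612). The AL mouse AL8 (156 CPM) lay below all LS mice, but it is of run 2 and the LS mice are of run 1. Within run 1, 6 of the 7 AL mice lay above all LS mice and 0 below them. Srxn1 was higher by 0.56 ± 0.18 (FDR = 0.0321), which did not pass without AL1, AL6, AL7 or any LS mouse (FDR 0.0514 to 0.0934). Mgst1 was higher by 0.39 ± 0.14 (FDR = 0.048), which did not pass without AL1, AL2, AL6, AL7 or any LS mouse (FDR 0.0507 to 0.152). Glutathione synthesis genes gave 0.01 to 0.12 with 0 of 4 passing, and the NADPH oxidase subunits 0.26 to 0.66 with 0 of 5 passing (lowest FDR 0.0802, Nox4).

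These counts rest on 4 LS mice of run 1. With ComBat-seq in place of the run term 1 member passed (Mt2), with no run term 2 (Prdx3 and Srxn1), and without the 5 mice of high hepatocyte markers, which leaves 2 LS mice, 0 did.

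The comparison of LS with Ctrl mice asks what the circulating light chain changed in the absence of deposits. No member passed in edgeR's quasi-likelihood test (0 of 44, lowest FDR 0.75), in DESeq2 or in the likelihood ratio test, where the whole table gave 3 genes (0.0207%) in the first, 0.00691% higher and 0.0138% lower in LS. At an unadjusted p under 0.05 there were 2 members, against 5.94% of all genes: Nox4, at 0.85, 1.05, 0.815 and 1.44 CPM in LS mice and 0.922, 1.18 and 2.3 CPM in Ctrl mice (log2 fold change -0.84 ± 0.281, FDR = 0.75), and Gclc, with -0.26 ± 0.0974 (FDR = 0.784). The standard errors were 0.163 for Gpx3, 0.113 for Gpx4 and 0.0874 for Sod2, with differences of 0.15, 0.07 and -0.04, and a test that does not pass at 4 LS mice does not show that the groups were alike.

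AL was also set against Ctrl within each run. A test of whether the AL against Ctrl difference itself differed between runs passed for 0 of 44 members, against 0.701% of 13835 genes (0.246% higher and 0.455% lower in run 2). At an unadjusted p under 0.05 there were 5 members, against 15.3% of all genes. With an FDR under 0.05 at any fold, DESeq2 gave 2 members (Gpx1 and Gstm2) and the likelihood ratio test 1 (Gpx1). Gpx1 had the lowest FDR (0.0834), with -0.24 ± 0.168 in run 1 and 0.92 ± 0.251 in run 2. In run 1 its AL mice were at 39.7 to 68.8 CPM and its Ctrl mice at 50.2 to 78.3 CPM, and in run 2 at 50.9 and 83.7 against 31.6 to 38.9 CPM. Sod3 gave 0.28 ± 0.194 in run 1 and 1.23 ± 0.292 in run 2. Gpx3 gave 0.68 ± 0.155 and 0.79 ± 0.219, and Sod2 gave -0.27 ± 0.0878 and -0.40 ± 0.131. Without AL8 or AL9 this test would rest on a single AL mouse in run 2, so counts from those fits are not given.

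**Figure D4:**
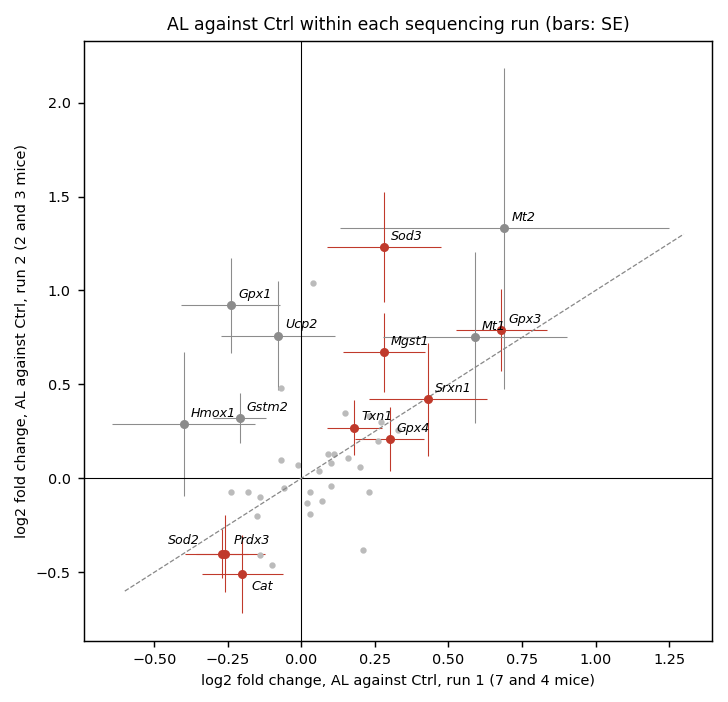
Log2 fold change of AL against Ctrl in run 1 (horizontal axis) and run 2 (vertical axis) for the 44 entries. Red points passed the FDR over both runs. Labelled grey points are Mt1, Mt2 and Gpx1, Gstm2, Hmox1 and Ucp2, of which the last 4 lay below 0 in run 1 and above 0 in run 2. Small points are the other members, bars are standard errors and the dashed line marks equal values. The 9 red points have the same sign in both runs, which their selection over both runs favours. Sod3 lies farthest from the line among them.

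Other genes of the same pathways were listed by function, and 78 of 84 could be tested. Against Ctrl 13 rose and 8 fell (26.9%, against 26.2% of all genes), 4 of them called; against LS 12 rose and 5 fell (21.8%, against 23.4%), 7 of them called. Genes named below that were not called were chosen after their values were seen. Slc40a1 and Ftl1 were the called genes that fell in both comparisons. Slc40a1, the iron exporter ferroportin, was at 8.78, 17.8 and 26.6 CPM in AL mice, at 25.6, 34.7, 30.6 and 35.6 CPM in LS mice, and at 22.3, 31.6 and 38.3 CPM in Ctrl mice, a log2 fold change of -0.97 ± 0.165 against Ctrl (FDR = 0.000559) and -0.83 ± 0.187 against LS (FDR = 0.00441). AL2 alone among the AL mice lay above the lowest LS mouse. Ftl1, the ferritin light chain, was at 60, 106 and 232 CPM in AL mice and 104, 211 and 326 CPM in Ctrl mice (-0.78 ± 0.235, FDR = 0.02) and fell by 0.88 on the log2 scale against LS (FDR = 0.0269). Fth1, the ferritin heavy chain, rose by 0.27 ± 0.0835 against Ctrl (FDR = 0.0235) and 0.32 ± 0.102 against LS (FDR = 0.0302). Ferritin genes have processed copies in the genome with which reads may be shared.

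Of 16 further NRF2 targets, 3 rose and 2 fell against Ctrl (31.2%, against 26.2% of all genes) and 5 rose and 2 fell against LS (43.8%, against 23.4%). Osgin1, an oxidative stress induced growth inhibitor, was at 3.65, 5.23 and 7.82 CPM in AL mice, at 2.79, 2.1, 2.16 and 2.47 CPM in LS mice, and at 2.46, 3.74 and 4.18 CPM in Ctrl mice. All AL mice lay above all LS mice, though 2 of the AL mice were of run 2 and the LS mice of run 1 only. The share of all genes that separated these groups in this way was not computed. The log2 fold change of Osgin1 was 1.14 ± 0.189 against LS (FDR = 0.000665) and 0.51 ± 0.158 against Ctrl (FDR = 0.0232). Cbr3, a carbonyl reductase, rose by 0.74 ± 0.239 against LS (FDR = 0.0324). Of the 9 partners and repressors of NRF2, 1 passed against Ctrl (11.1%, against 26.2% of all genes) and 3 against LS (33.3%, against 23.4%). Cul3, the ubiquitin ligase scaffold that works with KEAP1, fell against Ctrl (-0.35 ± 0.0856, FDR = 0.00636) and against LS (-0.29 ± 0.0986, FDR = 0.0421). Mafg and Sqstm1 rose against LS (0.50 ± 0.128 and 0.27 ± 0.0788). In NADPH supply 3 of 6 genes passed against Ctrl (50%, against 26.2% of all genes). G6pdx and Tkt, of the pentose phosphate pathway, rose by 0.32 ± 0.109 and 0.24 ± 0.0724, and mitochondrial Idh2 fell (-0.23 ± 0.0806).

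Of 27 glutathione and thiol enzymes, 4 rose and 2 fell against Ctrl (22.2%, against 26.2% of all genes) and 1 rose against LS (3.7%, against 23.4%). Gpx7, a peroxidase of the endoplasmic reticulum, rose by 0.79 ± 0.154 against Ctrl (FDR = 0.00142), from 1.97, 3.09 and 4.29 CPM to 4.15, 5.71 and 8 CPM. Gstm6 fell (-1.64 ± 0.268, FDR = 0.000426), at 0.287 to 0.83 CPM in AL and 0.799 to 2.56 CPM in Ctrl mice, and Gsta3 rose against LS (0.72 ± 0.252, FDR = 0.0446); both are transferases with close paralogs. Of 9 selenoproteins, 3 rose and 1 fell against Ctrl (44.4%, against 26.2% of all genes), among them Selenow by 0.55 ± 0.097 (FDR = 0.000764) and Selenot by -0.29 ± 0.0548 (FDR = 0.00118). Of 11 oxidant sources, 2 passed against Ctrl (18.2%, against 26.2% of all genes) and 3 against LS (27.3%, against 23.4%). Rac2, the small GTPase of the phagocyte oxidase, rose against LS (0.67 ± 0.196, FDR = 0.0189) and Ctrl (0.48 ± 0.162, FDR = 0.0351). Xanthine dehydrogenase Xdh rose against LS (0.63 ± 0.205, FDR = 0.0324), and Maob fell against both (-0.42 ± 0.114 and -0.35 ± 0.0982). Rac2 is a gene of blood cells. Of the 13 macrophage markers 4 passed against Ctrl (30.8%, against 26.2% of all genes) and 1 against LS (7.69%, against 23.4%), all higher. These shares were near or below those of all genes, and the part of macrophages in the Rac2 difference was not tested. Against LS, NADPH supply had 1 of 6 passing (16.7%, Tkt, 0.47 ± 0.0858) and selenoproteins 2 of 9 (22.2%, Selenow and Selenot). Both shares were below the 23.4% of all genes.

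**Figure D5:**
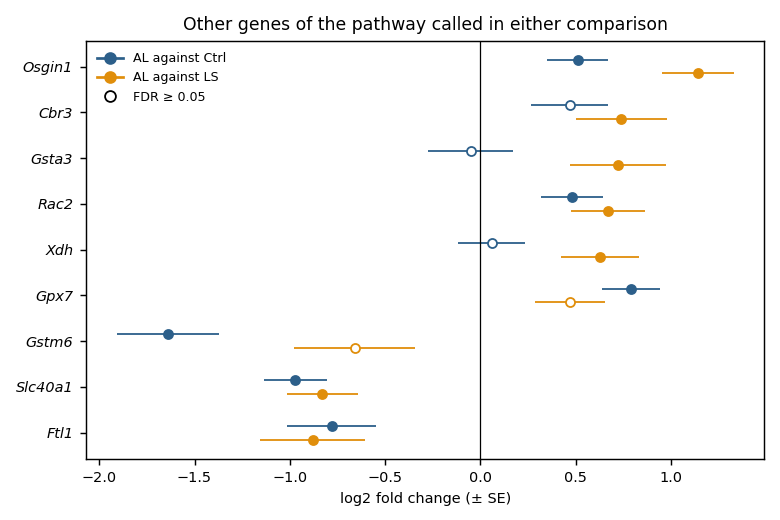
Log2 fold change with its standard error for the 9 other pathway genes called in AL against Ctrl or AL against LS. Filled points passed an FDR of 0.05 and open points did not; Slc40a1 and Ftl1 lie below 0 in both comparisons, and Osgin1 and Rac2 above it.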

How the data were processed

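Heart apex RNA was sequenced as stranded poly(A) libraries (TruSeq Stranded mRNA, NovaSeq) from 9 AL, 4 LS and 7 Ctrl mice. The authors aligned reads with STAR to GRCm38 and quantified genes with Salmon (nf-core/rnaseq 3.12 in the submitters' processing notes, which also name ENSEMBL release 111), and deposited 1 table of estimated counts per gene and mouse, with no normalization; 14.2% of its values were not whole. Gene coordinates and exon lengths are from GENCODE M 21 (GRCm38) and promoters from RefSeq (GRCm38.p6).

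The estimated counts, as deposited, were rounded, filtered (filterByExpr, minimum count 10) and scaled by TMM, and 14477 genes were fitted with edgeR 4.0.16 (R 4.3.3) in a quasi-likelihood model with group and sequencing run as terms, over all 3 groups. P-values were Benjamini-Hochberg adjusted over all genes. A called gene had an FDR under 0.05 and a change of at least 1.5-fold (0.58 on the log2 scale). The difference between runs was an interaction of group and run over AL and Ctrl mice. The comparison of AL mice with LS and Ctrl mice merged into 1 control group was not made. The members and all lists were chosen with earlier results of these data known; by the rule for naming genes, members that passed the FDR, and Nfe2l2, Keap1, Nqo1 and Hmox1, were given with their values, the rest by range and count, and other pathway genes by name when called. Single values of other members, and pathway genes named without being called, were chosen after their values were seen. The fits were tested on simulated data. Library totals were 43993277 to 62668146 in run 1 and 7867642 to 11794615 in run 2, so 3 counts, the smallest number taken as detected, correspond to 0.0479 to 0.381 CPM, a limit that covers counting error only. Library correlations were 0.893 to 0.98, and 0 pairs of libraries were identical. Alternatives were other filters and size factors, ComBat-seq (sva 3.50.0) or nothing in place of the run term, a likelihood ratio test in edgeR, a fit in DESeq2 1.42.0, the first run alone, a replicate block, Xist or hepatocyte markers as a covariate, mice left out, and only the groups compared. Each marker list was tested in the same fit: neutrophil (0 of 7 tested), fibroblast (0 of 10) and erythroid (0 of 8) markers passed in neither AL comparison, 1 of 8 endothelial markers (Egfl7) rose in both, and 1 of 7 adipocyte markers (Adipoq) rose against LS.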

Additional observations from a re-analysis of the deposited data

Results flagged for a closer look

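In 17 of the 132 groups of member values tested, 1 mouse lay apart from the rest of its group by Dixon's 95% critical value; chance alone gives about 5% of groups, and the groups are not independent, since many rest on the same mouse. Both runs were pooled within a group, and that share does not allow for a shift between runs: AL8 and AL9 are the 2 AL mice of run 2, and Ctrl mice also differed between runs for some of these genes (Prdx3 246 to 291 CPM in run 1 and 168 to 237 CPM in run 2). AL9 was the mouse that lay apart in 11 of the 17. It was the highest AL mouse for Keap1 at 56.3 CPM (next 46.1), for Sod3 at 48.4 CPM (next 29.8), and for the oxidase genes Cybb at 21.9 CPM (next 15), Ncf1 at 15.4 CPM (next 8.93) and Ncf4 at 3.96 CPM (next 1.87). It was the lowest AL mouse for Gpx4 at 257 CPM (next 366), Txn2 at 129 CPM (next 151), Sod2 at 255 CPM (next 369), Prdx3 at 102 CPM (next 193), Prdx6 at 117 CPM (next 159) and Gstk1 at 19.6 CPM (next 37.1). In AL9 the macrophage markers summed to 819 CPM and the fibroblast markers to 5178 CPM, the highest of the AL mice; their part in these values was not tested.

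AL7 was the highest AL mouse for Mt1 at 335 CPM (next 187) and Mt2 at 172 CPM (next 69.5), and AL8 for Gstm2 at 116 CPM (next 90.2). Among LS mice, LS1 was lowest for Txn1 at 36.7 CPM (next 39.5) and Cybb at 7.63 CPM (next 10.5), and LS3 for Ucp2 at 57.9 CPM (next 66.7).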

How the results depend on the processing

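Members with an FDR under 0.05 in AL against Ctrl numbered 9. The count was 1 with ComBat-seq in place of the run term and 1 without the 5 mice of highest Alb (albumin RNA, the mice of the highest hepatocyte sums). Without those 5 mice, Ctrl2 is the only Ctrl mouse of run 1. The count was 4 with Xist as a covariate, 4 with hepatocyte markers as a covariate, 4 with only the 2 groups compared and 5 with no run term. In AL against LS the 7 members became 1 with ComBat-seq, 2 with no run term, 4 with only the 2 groups compared and 0 without the mice of highest Alb, which leaves 2 LS mice and fewer samples. Called members in AL against Ctrl (1) were 2 with at least 10 counts in every mouse, RLE size factors, DESeq2, the likelihood ratio test, hepatocyte markers as a covariate and entries of one symbol summed, an alternative chosen after seeing the data. Called members in AL against LS (2) were 1 with ComBat-seq, 4 with hepatocyte markers, and 0 with no run term or without the mice of highest Alb. Members with an FDR under 0.05 for the difference between runs (0) became 2 with DESeq2 and 1 with the likelihood ratio test. LS against Ctrl gave 0 in every alternative run. Leaving out 1 mouse at a time gave 1 to 3 called members in AL against Ctrl (3 without AL3 or Ctrl2). With an FDR under 0.05 there were 4 to 9 (4 without AL1 or Ctrl4). In AL against LS 1 to 5 were called (5 without AL3, 1 without LS1, LS3 or LS4). There 2 to 8 passed the FDR (2 without LS4). LS against Ctrl gave 0 called and 0 passing throughout. For the difference between runs no range is given, since leaving out AL8 or AL9 leaves a single AL mouse in run 2.

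The labels' replicate numbers do not pair the mice: deviations of same-numbered mice correlated at -0.154 to 0.0594 over 7 AL and Ctrl pairs, -0.0745 to 0.231 over 4 AL and LS pairs and 0.0582 to 0.22 over 4 LS and Ctrl pairs. With a replicate block 5 members had an FDR under 0.05 and 0 were called in AL against Ctrl, and 4 and 0 in AL against LS.

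For the members that passed, in the comparison where they did, and for Nfe2l2, Keap1, Nqo1 and Hmox1 in all 3 comparisons, 608 alternative values kept direction and side of the threshold, 153 no longer passed, 2 newly passed and 24 changed sign, these 24 all with an FDR over 0.8; the cause was not tested. Members outside this set are not in these counts, and some changed sign too, such as Gpx1 in AL against Ctrl (-0.39 to 0.46). Nfe2l2 became 0.02 in AL against Ctrl with no run term and, with 1 mouse left out at a time, ran from -0.05 (without LS1) to 0.13 in LS against Ctrl. Keap1 in AL against Ctrl became 0.01 with Xist, 0.01 with hepatocyte markers, 0.03 without the mice of highest Alb and, with 1 mouse left out, -0.07 to 0.00 (without AL8). Keap1 in AL against LS became 0.01 with at least 10 counts in every mouse, 0.03 with no run term, 0.00 with Xist, 0.01 with hepatocyte markers, 0.04 without the mice of highest Alb and, with 1 mouse left out, -0.04 to 0.01 (0.01 without AL1 or AL6 and 0.00 without LS1). Keap1 in LS against Ctrl became 0.01 with ComBat-seq or Xist and, with 1 mouse left out, -0.03 to 0.02 (0.01 without LS2, LS4 or Ctrl2 and 0.02 without Ctrl1). Hmox1 without the mice of highest Alb became 0.11 in AL against Ctrl and 0.06 in LS against Ctrl, and Nqo1 in LS against Ctrl became 0.08 with no run term and 0.02 without the mice of highest Alb.

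Depth limits the scarce members most: the lowest count in any mouse was 6 for Ncf4 and 7 for Nox4, and run 2 holds the shallower libraries. LS mice were in run 1 only, so a difference between runs cannot be checked for them.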
